A study of Mus musculus with 35 samples.

Results

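The homeobox and forkhead genes described here are 47 developmental transcription factor genes of 8 families: 6 PAX, 9 LIM homeobox (8 Lhx genes and Isl1), 6 NK homeobox, 3 sine oculis type (Six2, Six3 and Six6), 7 forkhead, 4 IRX, 4 DLX and 8 other homeobox genes (Barhl1, Barhl2, Gsx1, Gsx2, Pitx1, Vax1, Emx1 and Emx2). They were taken as a list of genes whose promoters are known to be bivalent in embryonic stem cells, chosen with earlier results of these data known. The list was drawn from 49554 genes placed on the autosomes and X of mouse genome GRCm38. Each gene was read over a window from 5 kb before to 5 kb after it. The assay was ATAC-seq, which marks open chromatin by letting a transposase cut and tag it, in mouse embryonic stem cells in 2i and Lif (D0) and in epiblast-like cells after 1 day (D1) or 2 days (D2). The TET_KO line lacks Tet1, Tet2 and Tet3, the oxidases that start the removal of DNA methylation, and TET_WT is its wild-type parent. The DNMT_KO line lacks Dnmt1, Dnmt3a and Dnmt3b, the enzymes that place DNA methylation, and DNMT_WT is its own wild-type parent. With 4 lines and 3 days there were 12 groups, of 3 libraries each but for TET_KO at D2 with 2, and each genotype was represented by 1 line, so that genotype and line cannot be told apart. The comparison of each knockout with its parent asks what loss of either enzyme family does to chromatin as cells leave the naive state.

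In embryonic stem cells the promoters of such genes carry the repressive mark H3K27me3, placed by Polycomb repressive complex 2, together with the active mark H3K4me3, and the genes are silent but can be switched on in later lineages. Their CpG islands are wide and largely free of DNA methylation, and TET proteins are known to bind there and to keep methylation from spreading in from the flanks. Loss of TET activity is known to raise methylation at the edges of these islands, whereas cells without DNA methyltransferases have almost no CpG methylation to remove.

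The RefSeq promoter table of build GRCm38.p6 held 38 of the 47 genes, as a stretch that runs from before an annotated start to just after it. Irx5, Foxe1, Foxf1, Dlx6, Lhx5, Foxb1, Dlx5, Irx1 and Pitx1 are named without one. Where a gene had several annotated starts, that in the tile with the highest mean accessibility over all libraries was taken. The 6 promoters below are those of the genes with a called difference between TET_KO and TET_WT (Six3, Foxa1, Lhx8 and Irx3), of Pax8, whose start tile was called between days, and of Barhl2, which had the most CpG dinucleotides. Capitals mark every CpG, the dinucleotide that these enzymes methylate and demethylate, and each promoter is written along the strand of its gene. Six3 lies at chr17:85620584-85620883 (plus strand), Foxa1 at chr12:57546062-57546361 (minus), Lhx8 at chr3:154330511-154330810 (minus), Irx3 at chr8:91801605-91801904 (minus), Pax8 at chr2:24475550-24475849 (minus) and Barhl2 at chr5:106458117-106458416 (minus).
Six3: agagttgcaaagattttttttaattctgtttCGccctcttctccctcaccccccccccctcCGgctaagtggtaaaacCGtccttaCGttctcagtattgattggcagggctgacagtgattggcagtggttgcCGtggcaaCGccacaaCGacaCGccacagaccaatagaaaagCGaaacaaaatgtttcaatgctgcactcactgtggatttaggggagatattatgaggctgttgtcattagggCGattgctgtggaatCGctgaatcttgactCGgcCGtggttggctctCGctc
Foxa1: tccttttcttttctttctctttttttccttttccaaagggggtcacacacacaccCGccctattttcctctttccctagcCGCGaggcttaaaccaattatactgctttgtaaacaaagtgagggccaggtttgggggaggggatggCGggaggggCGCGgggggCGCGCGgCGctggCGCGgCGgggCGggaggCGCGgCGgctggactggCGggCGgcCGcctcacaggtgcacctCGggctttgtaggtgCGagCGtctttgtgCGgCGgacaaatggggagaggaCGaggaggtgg
Lhx8: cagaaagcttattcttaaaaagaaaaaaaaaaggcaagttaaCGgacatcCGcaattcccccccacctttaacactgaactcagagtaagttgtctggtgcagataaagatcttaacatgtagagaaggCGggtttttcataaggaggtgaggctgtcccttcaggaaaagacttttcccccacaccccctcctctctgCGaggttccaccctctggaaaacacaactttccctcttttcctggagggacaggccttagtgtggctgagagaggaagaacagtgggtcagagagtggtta
Irx3: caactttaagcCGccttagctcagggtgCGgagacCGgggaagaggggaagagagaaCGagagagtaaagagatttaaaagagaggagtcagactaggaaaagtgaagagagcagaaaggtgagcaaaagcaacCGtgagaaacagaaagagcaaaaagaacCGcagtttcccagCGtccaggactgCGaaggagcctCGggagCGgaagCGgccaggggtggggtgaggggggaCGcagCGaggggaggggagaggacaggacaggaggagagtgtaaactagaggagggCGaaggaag
Pax8: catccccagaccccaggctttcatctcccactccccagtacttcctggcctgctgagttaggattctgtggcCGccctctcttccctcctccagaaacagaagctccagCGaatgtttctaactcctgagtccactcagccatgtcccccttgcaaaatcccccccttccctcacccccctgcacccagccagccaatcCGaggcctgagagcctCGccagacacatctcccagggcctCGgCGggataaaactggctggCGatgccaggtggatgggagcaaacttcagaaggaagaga
Barhl2: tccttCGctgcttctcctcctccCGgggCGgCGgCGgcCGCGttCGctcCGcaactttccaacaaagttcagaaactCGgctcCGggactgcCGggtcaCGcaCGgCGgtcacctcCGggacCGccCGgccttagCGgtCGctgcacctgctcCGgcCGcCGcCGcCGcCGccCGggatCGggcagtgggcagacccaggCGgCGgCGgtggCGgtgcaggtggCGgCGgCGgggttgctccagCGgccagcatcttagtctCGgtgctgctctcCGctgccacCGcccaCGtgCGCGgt
These 6 promoters held 14, 26, 4, 14, 7 and 42 CpG dinucleotides in that order, so the called genes ran from the poorest of the 38 (Lhx8) to one above the median (Foxa1). Over the 38 promoters the median was 19 CpG (quartiles 13.25 and 29) and a GC content of 62.3%, against 14 CpG (4 and 25) and 57% over 17274 protein-coding promoters. The ratio of observed to expected CpG was over 0.6 in 28 of 38 (73.7%) and in 50.0% of all protein-coding promoters.

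Values are normalised RPKM, read density per length and library total averaged over the 2-kb tiles of a window after quantile normalisation. Windows ran from 7 to 99 tiles. Levels of genes of unlike length thus average over unlike spans and are not directly comparable. In naive TET_WT cells 45 of the 47 windows lay above the median gene, with a median of 0.804 against 0.545 for all genes and 0.661 for protein-coding genes. Irx5, an Iroquois homeobox gene of heart and neural patterning (chromosome 8, 92357796 to 92361456), had the highest level at 1.86, 1.58 and 2.55, in the 99.1st percentile. The ventral neural tube gene Nkx6-2 (chromosome 7, 139579376 to 139582797) followed at 1.49, 1.40 and 1.56. Every Irx5 library lay above every Nkx6-2 library, though the gap was small beside the spread of Irx5.

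Irx3, a further Iroquois gene (chromosome 8, 91798511 to 91801654), read 1.31, 1.54 and 1.42, which overlapped Nkx6-2. Foxf1, a forkhead gene of lung and gut mesenchyme (chromosome 8, 121084386 to 121088154), read 1.29, 1.17 and 1.15, below every library of Irx3. Irx5, Irx3 and Foxf1 all lie on chromosome 8. At D0 its tiles outside the 10% most accessible stood at 0.441, 0.485 and 0.379 (log2) in TET_WT. In TET_KO they stood at -0.0575, 0.0779 and 0.0020. There Irx5 still had the highest mean level (1.769), whereas Irx3 (1.173) and Foxf1 (1.119) lay below Foxa1 (1.499) and Foxc1 (1.458). The part of this background in the order of levels was not tested. The low end was held by Pax8, the thyroid and kidney regulator (chromosome 2, 24420551 to 24475599), at 0.446, 0.438 and 0.458, and by Pax7, which specifies muscle satellite cells (chromosome 4, 139737059 to 139833530), at 0.512, 0.510 and 0.476. Both lay under the median gene, and each has a long window, of 34 and 54 tiles, against a median of 10 over the 47 genes. By family the median level was highest for the IRX genes (1.23) and the forkhead genes (1.04) and lowest for the PAX genes (0.609), with the DLX genes at 0.916, NK at 0.937, LIM at 0.724 and Six2, Six3 and Six6 at 0.676. Window length and chromosome background were not allowed for in this order. The PAX windows held 13 to 99 tiles, and the IRX and forkhead windows 7 to 11.

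**Figure D1:**
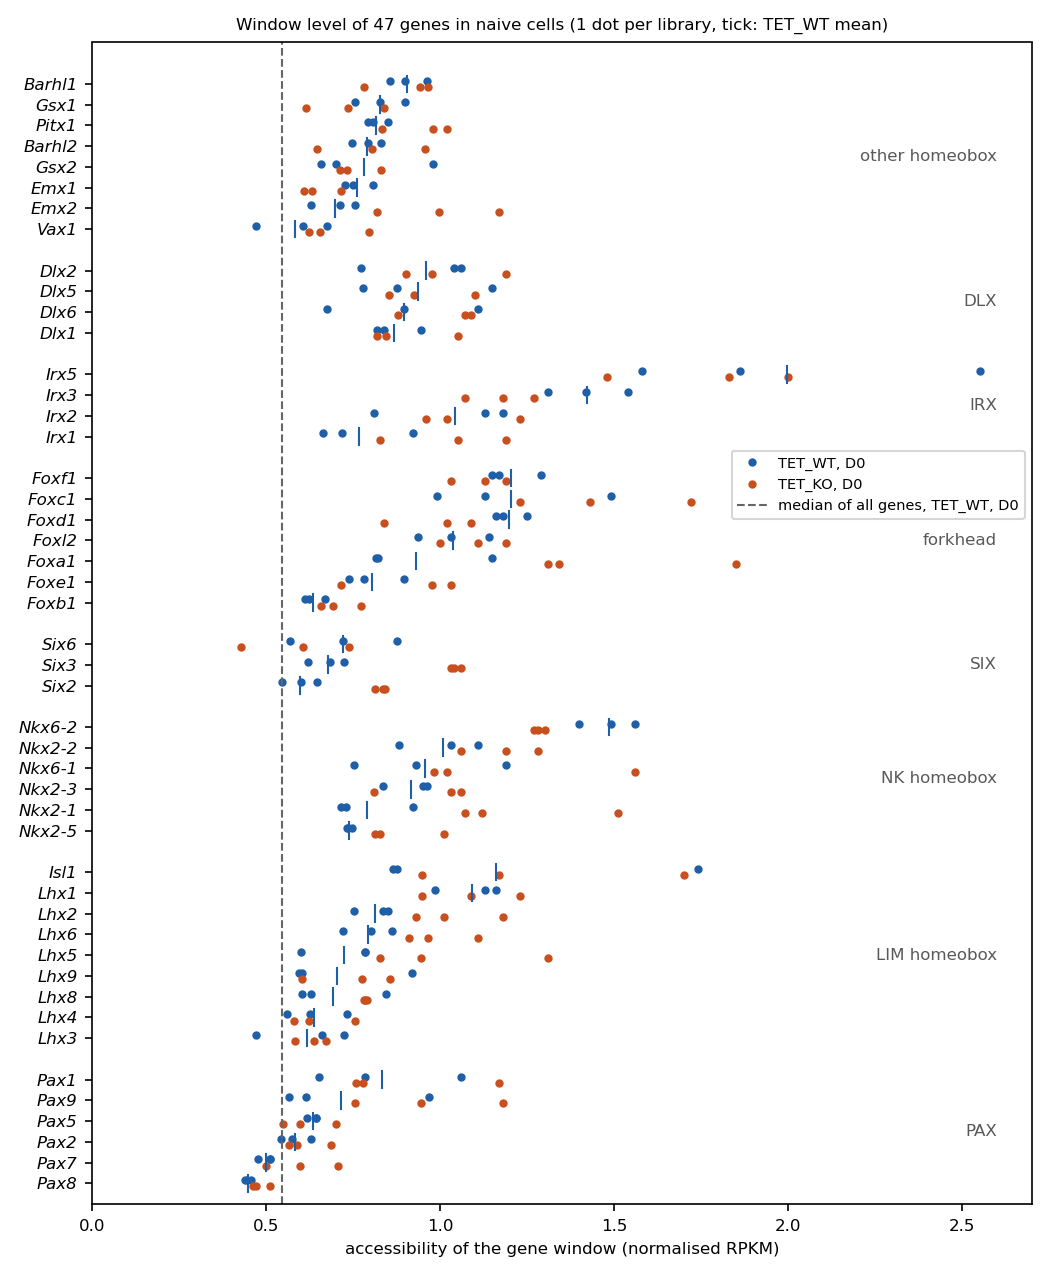
Accessibility of the 47 gene windows at D0, as normalised RPKM on the horizontal axis, with genes by family on the vertical axis, 1 dot per library of TET_WT and TET_KO, a tick at the TET_WT mean and a dashed line at the median of all genes (0.545). By the TET_WT mean Irx5, Nkx6-2 and Irx3 stand highest, and Pax7 and Pax8 stand left of the line. The TET_KO dots of Pax7 (0.596, 0.706 and 0.499) lie on both sides of it. The 3 TET_KO dots of Six3 and of Six2 lie right of all 3 TET_WT dots.

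The windows comprised 711 tiles, of which 280 (39.4%) were among the 10% most accessible tiles of the genome, and every gene had at least 1 of these. Dlx1 shares a tile with Dlx2, and Dlx5 with Dlx6, so these pairs are not independent. The most accessible tile of the window was the start tile in 23 of the 38 genes with a known start and lay within 2 kb of it in 29. Among the 38, Lhx6 and Pax2 had 3 annotated starts and Barhl1, Lhx2 and Lhx3 had 2. For genes with several starts the start tile was chosen as the most accessible in these data, here and among all protein-coding genes. An open start tile was thus part of that choice. Accessibility also reached further from the start than at other genes. In TET_WT at D0 the start tile of the 38 genes stood at 1.77 ± 0.14 (median over genes, log2 over the median tile of the library, SD, n = 3), close to 1.79 for 17274 protein-coding genes. At 2 kb before the start the values were 0.99 ± 0.10 against 0.71, and at 2 kb after it 1.43 ± 0.05 against 0.80. At 4 kb before the start the 38 genes stood at 0.85 ± 0.05 and all protein-coding genes at 0.45, and no library of the 38 genes fell below 0.807 there. These profiles are described without a test.

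At D2 the profile of the 38 genes in TET_KO differed most from TET_WT in the tile 2 kb before the start, at 1.41 ± 0.08 (SD, n = 2) against 1.16 ± 0.09 (n = 3), and these groups did not overlap (1.35 to 1.46 against 1.10 to 1.26). The start tile itself read 2.29 ± 0.19 against 2.21 ± 0.27, with overlap. Over all protein-coding genes the same tiles differed by -0.07 and -0.09. In DNMT_KO at D2 both tiles were lower than in DNMT_WT (n = 3 each). They read 0.92 ± 0.19 against 1.38 ± 0.14 before the start and 1.78 ± 0.08 against 2.15 ± 0.06 at it, neither overlapping. All protein-coding genes differed by -0.12 and -0.27 there, also without overlap (0.585 to 0.678 against 0.737, and 1.70 to 1.77 against 1.87 to 2.22). The median tile of the library, to which the profile is set, was higher in DNMT_KO (-1.509, -1.472 and -1.465, log2 RPKM) than in DNMT_WT (-1.852, -1.671 and -1.719). The part of this scaling in the lower values was not tested.

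**Figure D2:**
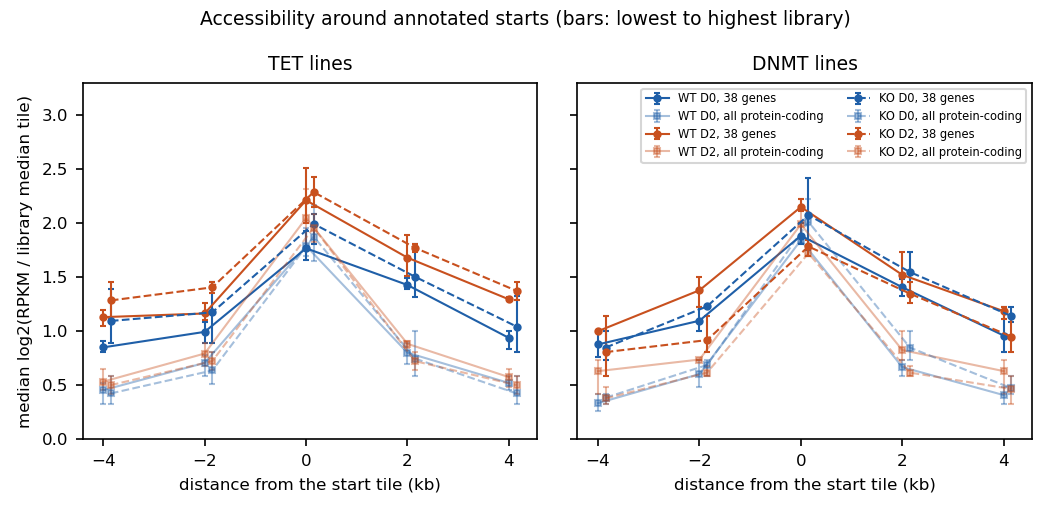
Median accessibility (log2 over the median tile of the library) by distance from the start tile in kb, for 38 of the 47 genes (circles, full colour) and for 17274 protein-coding genes (squares, pale), in wild-type (solid) and knockout (dashed) lines at D0 and D2, with bars from the lowest to the highest library. The start tiles of both sets overlap except in TET_KO at D2 (2.15 to 2.43 against 1.83 to 2.09). The flanking tiles of the 38 genes lie higher.

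The libraries held 3204685 to 23682696 recovered reads in tiles, and a window of the 47 genes held 16 to 2508 reads in a library. The D1 libraries held 5.61 to 46.8% mitochondrial reads where the others held 0%, and their tile values summed to 2.03 to 2.05 times the library total in place of 1.02 to 1.15. Day and processing cannot be told apart there, so D1 was compared only between lines and never with another day. Markers of naive cells fell from D0 to D2 (2 of 10 windows in TET_WT, 7 in DNMT_WT, 4 in TET_KO and 6 in DNMT_KO), among them Tfcp2l1, a naive-state factor, by 0.89, 1.20, 1.30 and 1.24 on the log2 scale. Epiblast-like markers rose (4, 5, 1 and 2 of 10), among them Utf1 by 0.81 in TET_WT. None of 8 fibroblast, 6 neural progenitor and 6 primitive endoderm marker windows was called in limma between these days. The fibroblast windows averaged 0.543 to 0.689 normalised RPKM over the groups, near the median gene, so none of these lists stood at 0. In TET_KO against TET_WT, Sox1 of the neural list was called lower at all 3 days and Gata4 of the endoderm list at D0 and D1. Sox1 lies on chromosome 8, where background tiles were also lower in TET_KO (-0.43, -0.51 and -0.45 at the 3 days), and Gata4 on chromosome 14 (-0.31 at D0 and -0.35 at D1). Their part in the results below was not tested. In such bulk samples fewer cells with an open site and less opening per cell cannot be told apart, and the labels do not say whether replicates were separate cultures, so p-values measure the spread between these libraries, which may be technical.

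After quantile normalisation the 47 windows tended to be more accessible in TET_KO than in TET_WT, most at D2, and only a few single genes were called. The list was chosen with earlier results of these data known, and no test of the list as a whole was run. At D0, 2 of 47 rose and 0 fell, with 3.66% of all genes called by limma at an adjusted p under 0.05. At D1, 1 rose and 1 fell, with 3.97% of all genes called. At D2, 3 rose and 0 fell, with 1.87% called. At D0 and D1 the share called among the 47 genes was thus near that of all genes. Over all genes most calls were falls, 1391 of 1813 at D0 and 752 of 928 at D2, whereas the calls of this fit among the 47 genes at these days were rises. The background of TET_KO against TET_WT was lowest on chromosome 8 (-0.43 at D0 and -0.45 at D2), which holds 3 of the 47 genes. Next came chromosome 14 (-0.31 at both days), which holds 0. The part of these chromosomes in the contrast between the 47 genes and all genes was not tested. Voom on recovered reads called 3 rises at D0 (Six3, Foxa1 and Nkx2-1), 1 rise and 2 falls at D1 (Six3; Irx3 and Irx5) and 3 rises and 2 falls at D2 (Irx1, Lhx8 and Nkx6-1; Irx3 and Foxf1).

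The median window differed by 0.10 (log2, TET_KO minus TET_WT) at D0, 0.11 at D1 and 0.28 at D2, against 0.01, 0.02 and 0.00 over all genes. At D2, 40 of 47 differences were above 0, against 53.1% of all genes. In 28 windows both TET_KO libraries at D2 lay above all 3 TET_WT libraries, where 17.2% of all genes did so, and in 2 windows both lay below, beside 17.2% of all genes. At D0 and D1 all TET_KO libraries lay above all TET_WT libraries in 10 and 7 of the 47 windows, beside 10.7% and 9.4% of all genes, and below in 4 and 4, beside 12.1% and 11.2%. The median level of the 47 genes was 0.933 ± 0.059 in TET_WT and 1.14 ± 0.037 in TET_KO at D2 (SD, n = 3 and 2), and the groups did not overlap (0.882 to 0.998 against 1.11 to 1.16). The 6 primitive endoderm marker windows had a median of 0.18 at D2 and mean levels of 0.943 and 1.17 in the 2 TET_KO libraries against 0.783 to 0.942 in TET_WT. The 10 naive marker windows stood at a median of -0.27 and the fibroblast windows at 0.07. The 10 epiblast-like marker windows stood at a median of -0.17, with Zic2 called lower (-0.63, limma adjusted p = 0.0212) and a mean level of 1.31 to 1.45 in the TET_WT libraries against 1.14 to 1.16 in TET_KO, without overlap. Zic2 lies on chromosome 14, whose background was at -0.31 at D2. The part of these lists in the result was not tested. At D0 it was 0.804 ± 0.064 and 0.940 ± 0.091, with overlapping libraries. The size of the D2 shift depended on the scaling: with values as deposited its median was 0.15, with medians of libraries set equal 0.15, and with limma voom on recovered reads 0.18. With values as deposited the D1 median was -0.13, where the median of all genes was -0.17.

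**Figure D3:**
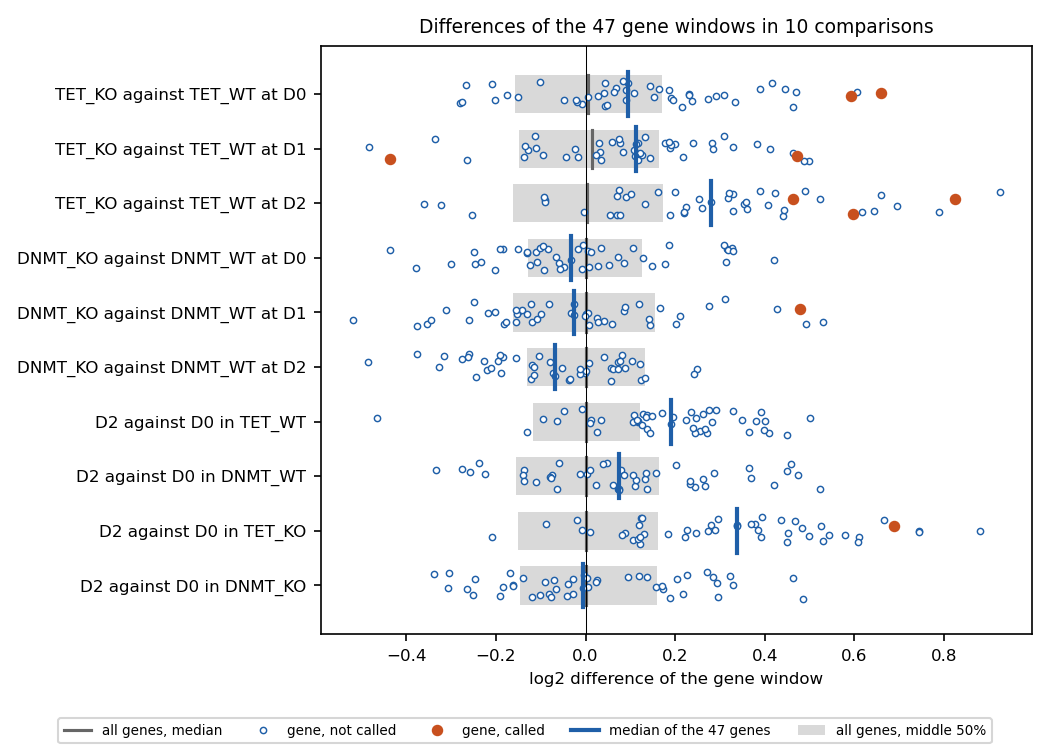
Log2 differences of the 47 gene windows (dots, filled where called) in 10 comparisons, with their median (blue line), and the middle 50% and median of all genes (grey bar and line). The blue line lies at 0.28 for TET_KO against TET_WT at D2 and at 0.34 for D2 against D0 in TET_KO, and close to 0 in the DNMT_KO comparisons.

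Six3, a sine oculis type homeobox gene needed for forebrain and eye (chromosome 17, 85613608 to 85626191), was called higher in TET_KO at every day. At D0 its window read 0.620, 0.724 and 0.685 in TET_WT and 1.06, 1.04 and 1.03 in TET_KO, a difference of 0.59 ± 0.10 (SE, limma adjusted p = 0.00068). At D1 it read 0.761, 0.798 and 0.734 against 1.08, 1.07 and 1.09, a difference of 0.47 ± 0.10 (limma adjusted p = 0.00371). All 6 TET_KO libraries of these days thus lay above all 6 TET_WT libraries.

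At D2 Six3 read 0.763, 0.829 and 0.843 against 1.20 and 1.08, a difference of 0.46 ± 0.11 (limma adjusted p = 0.0204). The rise was spread over the window and not set by 1 tile. Of its 8 tested tiles 8 were higher at D0 (by 0.42 to 1.06), 7 at D1 and 8 at D2, and none was called alone. The D0 and D1 calls held whichever library was left out (adjusted p at most 0.00881 and 0.0259). With limma the D2 call was lost without replicate 1 of TET_WT (0.42, adjusted p = 0.104) or replicate 1 or 3 of TET_KO (0.39 and 0.54, adjusted p = 0.417 and 0.0548), where the remaining TET_KO library is assumed to vary like the other groups. With values as deposited the limma adjusted p was 0.492, 0.686 and 0.978 for the 3 days, with differences of 0.49, 0.24 and 0.32. Centred on the background of chromosome 17 the differences were 0.52, 0.38 and 0.38, called at D0 (adjusted p = 0.00494) and not at D1 or D2 (0.0593 and 0.193).

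Six2, the nephron progenitor factor and neighbour of Six3 (chromosome 17, 85662736 to 85688254), is described with its values although it was not called, a choice made after they were seen. It read 0.599, 0.547 and 0.647 in TET_WT and 0.836, 0.814 and 0.842 in TET_KO at D0, with no overlap (0.45 ± 0.18, limma adjusted p = 0.203). The third gene of the family, Six6 of eye and pituitary, read 0.569, 0.721 and 0.876 against 0.737, 0.605 and 0.428, which overlap (-0.28 ± 0.21, adjusted p = 0.583). At D2 Six6 read 0.883, 1.01 and 0.934 against 1.11 and 1.09, without overlap and without a call. The difference between these genes was not tested.

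Among the forkhead genes Foxa1, a pioneer factor of endoderm (chromosome 12, 57540628 to 57548029), was called higher at D0. It read 0.817, 0.822 and 1.15 in TET_WT and 1.31, 1.34 and 1.85 in TET_KO, a difference of 0.66 ± 0.19 (limma adjusted p = 0.04997). The groups did not overlap, with the highest TET_WT library at 1.15 and the lowest TET_KO library at 1.31. The call stood at the threshold and was lost without TET_WT replicate 1 (0.58, adjusted p = 0.207) or 2 (0.58, 0.213) and without TET_KO replicate 1 (0.75, 0.0586), 2 (0.73, 0.0687) or 3 (0.50, 0.259). It was also lost in 8 of 12 other settings (limma adjusted p 0.0134 to 0.362 over all 12), among them values as deposited (0.55, 0.362) and chromosomes centred (0.56, 0.201), and was kept with voom (0.59, 0.0281). At D2 Foxa1 read 0.916, 1.57 and 1.15 against 2.12 and 1.79 (0.70 ± 0.21, adjusted p = 0.0990), the same sign without a call. Of its 8 tested tiles 8 were higher in TET_KO at D0 and 8 at D2. Foxc1 of mesoderm and eye was at 0.64 ± 0.28 at D2 (limma adjusted p = 0.327), and the 7 forkhead windows had medians of 0.14, 0.18 and 0.36 at D0, D1 and D2.

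Irx1, an Iroquois gene of lung and neural patterning (chromosome 13, 71958232 to 71963723), was called higher at D2 only. It read 0.637, 1.17 and 0.808 in TET_WT and 1.69 and 1.39 in TET_KO, a difference of 0.83 ± 0.22 (limma adjusted p = 0.0468). All 4 of its tested tiles were higher, by 0.65 to 1.19. Lhx8, a LIM homeobox gene of cholinergic forebrain neurons and oocytes (chromosome 3, 154306288 to 154330560), read 0.581, 0.619 and 0.665 against 1.00 and 0.930 at D2 (0.60 ± 0.14, limma adjusted p = 0.0272). In both genes the 2 TET_KO libraries lay above all 3 TET_WT libraries.

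These D2 calls rested on few libraries. The Irx1 call was lost without TET_WT replicate 1 (0.63, adjusted p = 0.263) or 3 (0.79, 0.142) and without TET_KO replicate 1 (0.69, 0.587) or 3 (0.96, 0.108). The Lhx8 call was lost without any 1 of the 5 libraries: TET_WT replicate 1 (0.55, adjusted p = 0.119), 2 (0.59, 0.0674) and 3 (0.64, 0.0529), and TET_KO replicate 1 (0.55, 0.376) and 3 (0.65, 0.104). Neither gene was called with values as deposited (0.64 and 0.50, limma adjusted p = 0.605 and 0.568). Both were called with limma voom on recovered reads (0.71 and 0.56, adjusted p = 0.0140 and 0.0130).

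Several windows had larger differences that limma on normalised windows did not call, named here after their values were seen. Isl1, the LIM homeobox gene of motor neurons and heart progenitors, read 0.831, 1.43 and 0.905 in TET_WT and 2.22 and 1.79 in TET_KO at D2 (0.92 ± 0.36, limma adjusted p = 0.239). Nkx6-1 of beta cells and motor neurons read 0.985, 1.34 and 1.08 against 1.92 and 2.05 (0.79 ± 0.23, limma adjusted p = 0.0809). Nkx2-1 of lung, thyroid and ventral forebrain read 0.857, 1.09 and 0.963 against 1.68 and 1.44 (0.66 ± 0.21, limma adjusted p = 0.120), and it was also at 0.61 ± 0.19 at D0 and 0.46 ± 0.19 at D1. With voom on recovered reads Nkx6-1 was called at D2 (0.66, limma adjusted p = 0.0216) and Nkx2-1 at D0 (0.55, 0.0277), and Isl1 was not (0.79, 0.0677). In each of these 3 genes the groups of D2 did not overlap. The TET_WT library of replicate 2 was the highest of its group in all 3, and in Foxa1 and Irx1 as well. Further windows are given by family with values at D2. Apart from Lhx8 above, limma on normalised windows called none of those named. Among the PAX genes, Pax9 of tooth and pharyngeal pouch read 0.743, 0.997 and 0.767 against 1.43 and 1.18 (0.62 ± 0.20, limma adjusted p = 0.145), and Pax1 of the sclerotome 0.779, 1.15 and 0.927 against 1.55 and 1.22 (0.52 ± 0.20, limma adjusted p = 0.248). Pax5 and Pax8 stood at -0.09 each with overlapping groups, so the family was not uniform. Of the 9 LIM genes 5 did not overlap (Lhx4, Lhx5, Lhx8, Lhx9 and Isl1), beside the 17.2% of all genes, and Lhx4 (0.739 against 0.742) and Lhx9 (0.988 against 0.993) barely cleared. Lhx1, needed for head organiser function, was at 0.00 ± 0.17.

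Nkx2-3, a gut and spleen regulator, read 1.08, 1.11 and 1.14 in TET_WT and 1.49 and 1.48 in TET_KO at D2, close within each group and apart between them (0.41 ± 0.17, limma adjusted p = 0.288). Nkx2-5 of the heart read 0.798, 0.593 and 0.830 against 0.905 and 0.963, and Nkx6-2 overlapped at 0.06 ± 0.16. Dlx5 and Dlx6 of branchial arches and forebrain, which share a tile, stood at 0.49 ± 0.21 and 0.36 ± 0.26 without overlap, and Dlx1 and Dlx2, which also share a tile, at 0.07 ± 0.19 and 0.19 ± 0.21 with overlap. Among the other homeobox genes Gsx1 and Gsx2 of the ventral telencephalon stood at 0.44 ± 0.21 and 0.32 ± 0.19 and Emx2 of the cortex at 0.32 ± 0.16, all 3 without overlap, whereas Barhl1, Barhl2, Pitx1 and Vax1 overlapped.

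By family, the D2 median was 0.42 for Six2, Six3 and Six6, 0.38 for NK, 0.36 for forkhead, 0.27 for DLX, 0.24 for the other homeobox genes, 0.19 for PAX, 0.13 for LIM and 0.07 for IRX. These medians do not allow for chromosome background. Irx3, Irx5 and Foxf1 lie on chromosome 8, with a background of -0.45 at D2, and Dlx5, Dlx6 and Emx1 on chromosome 6, at -0.18.

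At single tiles 1 of the 280 was called at D0, with 0.388% of all tested tiles called. At D1 and D2 limma called 0 member tiles, with 0.103% and 0.154% of all tiles called. At an unadjusted p under 0.05 there were 18 and 27 of 280, against 9.29% and 8.34% of all tiles, and limma voom on recovered reads called 0 at each of these days and 0 at D0. The called tile lay inside Pax8, 14 kb from its start tile (chromosome 2, 24460001 to 24462000), and was higher in TET_KO by 1.85 ± 0.44 (limma adjusted p = 0.0277). It held 16, 5 and 14 reads in TET_WT and 13, 20 and 12 in TET_KO, whose libraries were shallower, and at D2 11, 19 and 17 against 12 and 24. The D0 groups did not overlap after scaling (-1.94, -2.18 and -0.59 against -0.26, 0.72 and 0.38, log2). The call was lost without TET_WT replicate 1 (1.68, adjusted p = 0.210) or 2 (1.55, 0.262) and without TET_KO replicate 2 (1.63, 0.142) or 3 (1.80, 0.110).

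**Figure D4:**
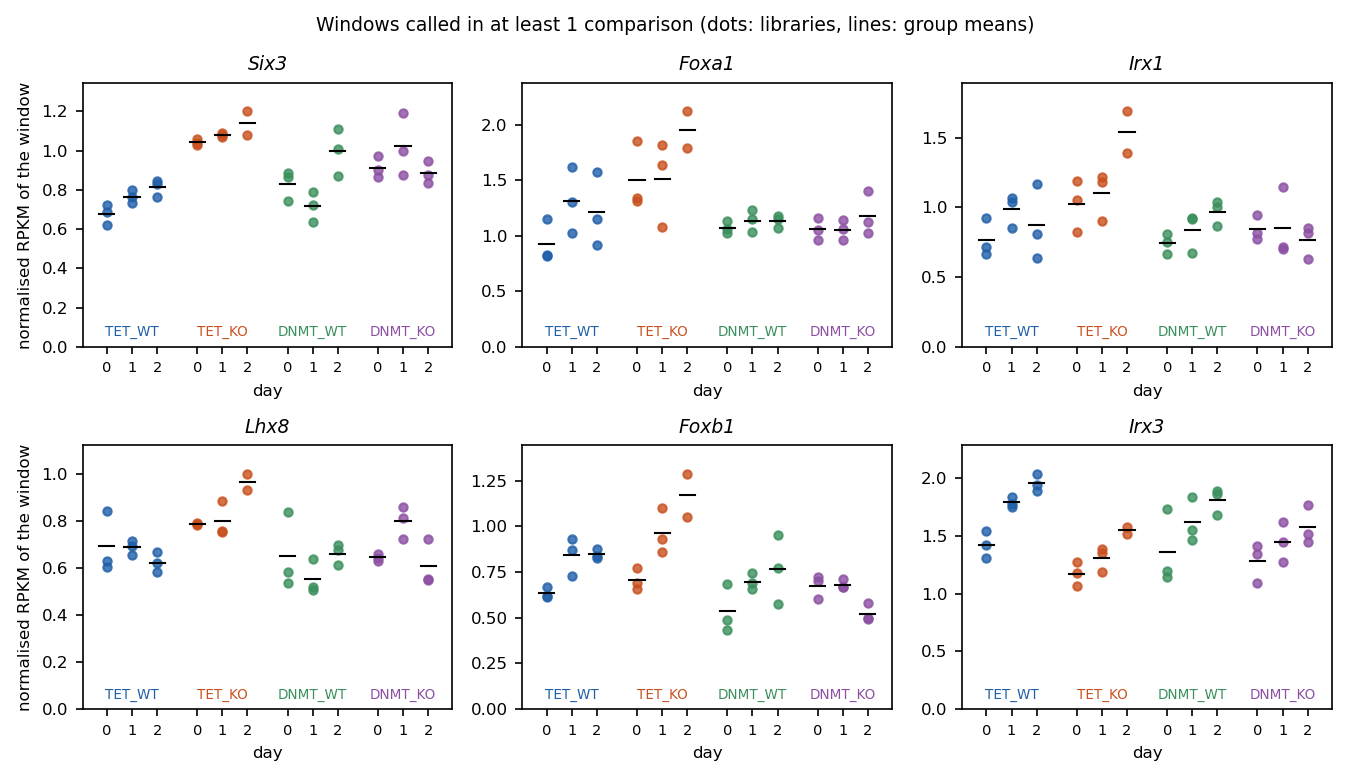
Normalised RPKM of 6 gene windows in every library (dots) with group means (lines), by line and day, on axes that start at 0. The TET_KO dots of Six3 lie above the TET_WT dots at each day, those of Foxa1, Irx1, Lhx8 and Foxb1 lie above TET_WT at D2, and those of Irx3 lie below TET_WT at each day.

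In the limma fit of normalised windows Irx3 was the only one of the 47 called lower in TET_KO, and only at D1. At D1 it read 1.84, 1.78 and 1.75 in TET_WT and 1.35, 1.19 and 1.39 in TET_KO, a fall of -0.44 ± 0.12 (limma adjusted p = 0.0462). At D0 and D2 it stood at -0.27 ± 0.12 and -0.32 ± 0.14, not called by that fit, and at no day did the groups overlap. With voom on recovered reads it was called lower at D1 (-0.59, limma adjusted p = 0.0059) and at D2 (-0.53, 0.0208). Irx3, Irx5 and Foxf1 are the 3 genes of the list on chromosome 8, and all 3 had differences under 0 at all 3 days. Irx5 was at -0.15, -0.48 and -0.25 and Foxf1 at -0.10, -0.26 and -0.36, not called by limma on normalised windows. With voom on recovered reads Irx5 was called lower at D1 (-0.64, limma adjusted p = 0.0107) and Foxf1 at D2 (-0.54, 0.0203), and with values as deposited both were called lower at D1 (-0.82 and -0.54, limma adjusted p = 0.0177 and 0.0156). With chromosomes centred Irx5 stood at 0.28, 0.02 and 0.19 and Foxf1 at 0.33, 0.24 and 0.08, none called.

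Tiles outside the accessible 10% on chromosome 8 were lower in TET_KO as well, with differences of -0.43 at D0, -0.51 at D1 and -0.45 at D2. When each chromosome was centred on this background, Irx3 at D1 stood at 0.07 (limma adjusted p = 0.939) in place of -0.44. The call was also lost without any 1 of the 6 libraries: without TET_WT replicate 1, 2 or 3 (-0.41, -0.44 and -0.45, adjusted p = 0.144, 0.104 and 0.107) and without TET_KO replicate 1, 2 or 3 (-0.46, -0.37 and -0.48, adjusted p = 0.0811, 0.187 and 0.0767). Chromosome 6, which holds Dlx5, Dlx6 and Emx1, had a background of -0.23, -0.23 and -0.18. On chromosomes 12, 13 and 17, with Foxa1, Irx1 and Six3, it lay between 0.02 and 0.10, and on chromosome 3 with Lhx8 it was 0.05 at D2. Centring ended the calls of Foxa1 at D0 (0.56, limma adjusted p = 0.201), Irx1 at D2 (0.76, 0.0980) and Lhx8 at D2 (0.54, 0.0939), as well as those of Six3 at D1 and D2, so that of the 7 calls between these lines Six3 at D0 alone was kept. After this centring the median of the 47 windows was 0.14, 0.08 and 0.24 at D0, D1 and D2.

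**Figure D5:**
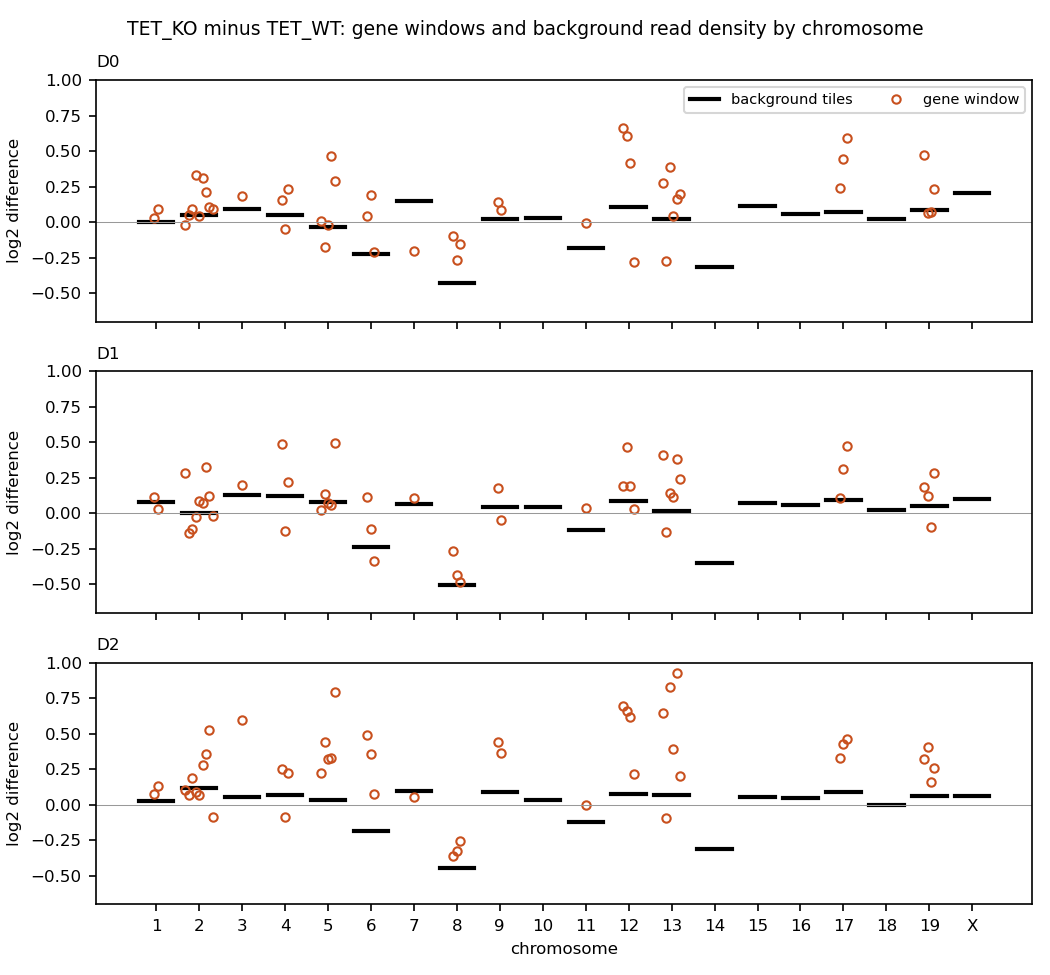
Log2 differences of TET_KO minus TET_WT by chromosome at D0, D1 and D2, for the 47 gene windows (circles) and for background tiles (black bars). The 3 circles on chromosome 8 lie under 0 beside a bar between -0.43 and -0.51, whereas the bars of chromosomes 12, 13 and 17 lie near 0 with most circles above them.

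In the DNMT lines the windows of the 47 genes had medians slightly under 0. At D0 limma called 0 of 47, with 0.00404% of all genes called, and at an unadjusted p under 0.05 there were 3 of 47 against 6.45% of all genes. At D1, 1 rose, with 0.341% called. At D2 it called 0, with 0% of all genes called, and 2 of 47 had an unadjusted p under 0.05 against 6.73%. Limma voom called 0 at each day. The median window differed by -0.03, -0.03 and -0.07 at the 3 days (DNMT_KO minus DNMT_WT), with quartiles from -0.13 to 0.10 at D0 and from -0.19 to 0.06 at D2. Of the tiles limma called 0 at each day, beside 0%, 0.00304% and 0.0387% of all tiles, with 17, 33 and 20 of 280 at an unadjusted p under 0.05 against 5.89%, 7.89% and 8.59%, and voom called 0. The median level of the 47 genes was 0.845 ± 0.016 and 0.836 ± 0.044 at D0 and 0.901 ± 0.079 and 0.839 ± 0.041 at D2 in DNMT_WT and DNMT_KO (SD, n = 3). Those groups overlapped, and the shift in the TET lines was not tested against that in the DNMT lines.

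The gene called in DNMT_KO at D1 was again Six3. It read 0.637, 0.723 and 0.791 in DNMT_WT and 1.19, 1.00 and 0.876 in DNMT_KO, without overlap, a difference of 0.48 ± 0.10 (limma adjusted p = 0.0228). At D0 it read 0.742, 0.866 and 0.885 against 0.973, 0.863 and 0.899 and at D2 0.871, 1.01 and 1.11 against 0.948, 0.874 and 0.836, both overlapping. The D1 call was lost without DNMT_WT replicate 1 (0.40, adjusted p = 0.0972) or 2 (0.49, 0.0526) or DNMT_KO replicate 1 (0.37, 0.0527), and with limma voom (0.61, adjusted p = 0.172). The DNMT_KO libraries of D1 had 17.05, 26.07 and 22.39% empty tiles against 11.96, 10.02 and 18.43% in DNMT_WT, and with reads thinned to equal totals the adjusted p was 0.243.

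From D0 to D2 most windows of the 47 genes had differences above 0 in the TET lines (41 in TET_WT and 43 in TET_KO), with 32 in DNMT_WT and 22 in DNMT_KO. In TET_WT limma called 0 of 47, with 0.539% of all genes called, and 9 of 47 had an unadjusted p under 0.05 against 7.02%. Voom called 1. In TET_KO, 1 rose, with 0.686% called, and voom called 0. DNMT_WT had 0 called, with 1.88% of all genes called (7 of 47 unadjusted against 13.7%, voom 0), and DNMT_KO had 0, with 1.15% called (6 of 47 unadjusted against 12.1%, voom 0). The median window differed by 0.19 in TET_WT, 0.34 in TET_KO, 0.08 in DNMT_WT and -0.01 in DNMT_KO (log2, D2 minus D0), against 0.00 over all genes in each. In the same order the 6 neural progenitor windows stood at 0.27, 0.23, -0.06 and 0.07, and the 6 primitive endoderm windows at 0.12, 0.35, -0.12 and -0.03. The 44 other developmental regulators described below stood at 0.07, 0.15, -0.03 and -0.03, and 15 housekeeping genes at 0.04, -0.03, 0.08 and -0.004. Differences between these lists were not tested.

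In TET_WT every D2 library lay above every D0 library in 17 windows, beside 9.16% of all genes, and in TET_KO in 27, beside 12.6%. In DNMT_WT this held for 3 windows, beside 8.8%, and in DNMT_KO for 6, beside 9.69%. Every D2 library lay below every D0 library in 1 window of TET_WT, 1 of TET_KO, 1 of DNMT_WT and 4 of DNMT_KO, beside 9.06%, 12.6%, 9.35% and 9.59% of all genes. The day effect was not shown to differ between knockout and parent. The test of the difference called 0 of 47 windows in the TET lines, with 0% of all genes called, and 0 in the DNMT lines, with 0% called. At an unadjusted p under 0.05 these were 2 and 4 of 47 against 3.51% and 4.94%, and voom called 0 in both.

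The called window was that of Foxb1, a forkhead gene of the developing hypothalamus and brainstem (chromosome 9, 69757710 to 69760940). In TET_KO it read 0.691, 0.774 and 0.657 at D0 and 1.29 and 1.05 at D2, a rise of 0.69 ± 0.16 (limma adjusted p = 0.0358). In TET_WT it read 0.670, 0.613 and 0.622 at D0 and 0.875, 0.830 and 0.839 at D2 (0.39 ± 0.14, adjusted p = 0.378), also without overlap. The days overlapped in DNMT_WT, and in DNMT_KO they lay the other way, with 0.602, 0.724 and 0.699 at D0 and 0.499, 0.491 and 0.580 at D2 in DNMT_KO. The Foxb1 call was lost without any 1 of the 5 libraries: TET_KO at D0 replicate 1, 2 or 3 (0.68, 0.75 and 0.64, adjusted p = 0.0917, 0.0581 and 0.115) and at D2 replicate 1 or 3 (0.55 and 0.83, adjusted p = 0.587 and 0.0774).

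Irx3 read 1.31, 1.54 and 1.42 at D0 and 1.94, 1.89 and 2.04 at D2 in TET_WT (0.45 ± 0.12, limma adjusted p = 0.127), with no overlap. Nkx6-2 was the exception in TET_WT, at 1.49, 1.40 and 1.56 against 1.08, 1.11 and 0.999 (-0.46 ± 0.14, limma adjusted p = 0.205), the only window of the 47 in which all D2 libraries of TET_WT lay below all D0 libraries. Neither passed the test.

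Other windows with larger day differences in TET_KO were not called, and are named after their values were seen. Six6 read 0.737, 0.605 and 0.428 at D0 and 1.11 and 1.09 at D2 (0.88 ± 0.23, limma adjusted p = 0.0799), the largest difference of the 47 in that comparison. Nkx6-1 was at 0.75 ± 0.23, Gsx1 at 0.74 ± 0.21 and Nkx2-3 at 0.61 ± 0.17 (limma adjusted p = 0.164, 0.106 and 0.106), all without overlap of the days. Six3 was at 0.12 ± 0.11 between days in TET_KO, where it was already called higher than TET_WT at D0. The primitive endoderm windows had a median of 0.35 in the same comparison, and their part was not tested.

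At single tiles the day comparisons called 0 of 280 in TET_WT, with 1.54% of all tiles called, and 0 in TET_KO, with 1.31% called (21 and 27 of 280 at an unadjusted p under 0.05 against 10.1% in both, and 1 and 2 tiles with voom). DNMT_WT had 1 rise, with 2.68% called, and DNMT_KO 3 rises and 1 fall, with 3.04% called. The tests of the difference in day effect called 0 tiles, with 0.000759% of all tiles called in the TET lines and 0% in the DNMT lines (2 and 15 of 280 unadjusted against 3.52% and 6.35%, voom 0).

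The DNMT_WT tile lay over Irx5 (chromosome 8, 92358001 to 92360000) and held 19, 12 and 18 reads at D0 and 27, 24 and 24 at D2, a rise of 1.04 ± 0.31 (limma adjusted p = 0.0487). The call was lost without any 1 of the 6 libraries: DNMT_WT at D0 replicate 1, 2 or 3 (1.17, 1.01 and 0.95, adjusted p = 0.061, 0.138 and 0.163) and at D2 replicate 1, 2 or 3 (1.10, 1.01 and 1.02, adjusted p = 0.0902, 0.127 and 0.128). In DNMT_KO the start tile of Pax8 (chromosome 2, 24474001 to 24476000), which contains the promoter printed above, held 6, 5 and 6 reads at D0 and 19, 11 and 14 at D2, a rise of 1.31 ± 0.40 (limma adjusted p = 0.0478). That call too was lost without any 1 of its 6 libraries (1.21 to 1.47, adjusted p = 0.0606 to 0.164).

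Nkx2-2, a homeobox gene of ventral neural tube and pancreas, had the largest of the 3 called rises of a tile in this comparison (chromosome 2, 147170001 to 147172000), with 2, 4 and 4 reads at D0 and 23, 8 and 10 at D2 in DNMT_KO (1.80 ± 0.47, limma adjusted p = 0.0163). It was lost without DNMT_KO replicate 1 of D0 (1.51, adjusted p = 0.108) or of D2 (1.42, 0.171). A second Nkx2-2 tile, outside the naming rule and given because it was also called (chromosome 2, 147182001 to 147184000), held 1, 4 and 8 reads at D0 and 14, 9 and 11 at D2 (1.52 ± 0.44, limma adjusted p = 0.0345). It kept its call only without DNMT_KO replicate 3 of D0, and was lost without replicate 1 or 2 of D0 (0.85 and 1.61, adjusted p = 0.398 and 0.0636) or replicate 1, 2 or 3 of D2 (1.47, 1.63 and 1.45, adjusted p = 0.110, 0.0608 and 0.109).

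The fall was in Pax5, the B cell commitment factor, 166 kb from its start tile (chromosome 4, 44544001 to 44546000), with 20, 9 and 8 reads at D0 and 3, 6 and 4 at D2 (-1.63 ± 0.50, limma adjusted p = 0.0499). It was lost without DNMT_KO at D0 replicate 1, 2 or 3 (-1.24, -1.76 and -1.87, adjusted p = 0.268, 0.0808 and 0.0546) or at D2 replicate 1 or 3 (-1.22 and -1.69, adjusted p = 0.293 and 0.0912). The Nkx2-2 and Pax5 tiles rest on 1 to 23 reads a library, so that a few reads set each value.

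The genes that encode the Polycomb machinery itself, the writers and readers of the marks on these promoters, were read over the same kind of window. In TET_KO against TET_WT 1 of 31 rose at D0 (Eed, the PRC2 subunit that reads H3K27me3, 0.39 ± 0.10, limma adjusted p = 0.0217), 1 fell at D1 (Bcor, a PRC1.1 corepressor, -0.45 ± 0.12, adjusted p = 0.0415) and 0 were called at D2. Of all genes 3.66%, 3.97% and 1.87% were called at these days, so the D0 and D1 shares were near that of all genes. From D0 to D2 Eed fell by 0.54 in DNMT_WT and by 0.65 in TET_KO. In DNMT_WT Phc1, a subunit of canonical PRC1, and Jarid2, an accessory protein of PRC2, rose by 0.52 and 0.40. In TET_KO Mtf2, a further PRC2 accessory protein, fell by 0.53. Of all genes 1.88% were called between these days in DNMT_WT and 0.686% in TET_KO. Of 15 genes of the Trithorax and bivalency machinery 1 fell in TET_KO at D2, Ash2l (-0.82 ± 0.17, limma adjusted p = 0.00918), a core subunit of H3K4 methyltransferases, which lies on chromosome 8. From D0 to D2 Rbbp5, a core subunit of the same enzymes, fell by 0.45 in DNMT_KO, where 1.15% of all genes were called. The median window of the Polycomb list was at -0.08, 0.02 and -0.09 at D0, D1 and D2.

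A list of 44 other developmental regulators differed in the same direction as the 47 genes and by less. Its median was 0.08, 0.08 and 0.20 at D0, D1 and D2 in TET_KO against TET_WT, beside 0.10, 0.11 and 0.28 for the 47 genes. It held 0 rises at any of these days, 1 fall at D0 (Gata4) and 2 falls at D1 (Gata4 and Pou4f2), on chromosomes 14 and 8. Of all genes 3.66%, 3.97% and 1.87% were called at D0, D1 and D2. The 15 housekeeping genes had medians of 0.03, 0.09 and 0.01 and no call. No test compared these lists.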

How the data were processed

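ATAC-seq was measured in 35 libraries of 4 mouse lines and 3 days. The authors deposited log2 RPKM per 2-kb tile of GRCm38, per the file headers and the values. Trim Galore 0.6.5, cutadapt 2.3 and Bowtie2 2.4.1 are named in the submitters' processing notes; read shift and duplicate handling are not given in the sources used here. Whole reads were recovered from the log2 RPKM values deposited by the authors (at least 99.999% of values within 0.01 read of a whole number), and an empty tile carries 0.9 read. 

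Gene windows were means of linear RPKM over all tiles from 5 kb before to 5 kb after a gene (empty tiles at 0), as log2 after adding 0.05, quantile normalised over 49554 genes. Fold changes are on that scale and understate low genes. The 131678 tested tiles were the 10% with the highest mean over all libraries, D1 included, that had a read in some D0 or D2 library. They held 5 to 39 reads in the median tile of a library. Both were fitted with limma 3.58.1 (trend, R 4.3.3) over 12 group means with 23 residual degrees of freedom, 2-sided, Benjamini-Hochberg adjusted within each of 12 comparisons and called at an adjusted p under 0.05. The fit was tested on simulated data. D1 was not compared with other days.

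The members and lists were chosen with earlier results of these data known. Values per library are given for called windows and tiles (up to 3 rises and 3 falls a comparison, 1 tile a gene) and for the 4 highest and 2 lowest levels; other genes named were chosen after their values were seen. Alternatives were other scalings, pseudocount, filters, window, voom on recovered reads, thinning to 3204685 reads, a replicate block and leaving out each library.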

Additional observations from a re-analysis of the deposited data

How the results depend on the processing

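Of 252 counts of called windows or tiles recomputed under other settings for 24 results (16 of them 0), 185 stayed within 1.5 times and 67 moved. A count of 0 that stayed 0 is among those that stayed. Counts are rises plus falls, so one that stayed need not hold the same genes or directions. With values as deposited the count of windows in TET_KO against TET_WT at D1 stayed. Yet Six3 lost its call there (0.24, limma adjusted p = 0.686), and Irx5 and Foxf1 were called lower. In the lists that follow, KO against WT is at D0, D1 or D2 and day effects are D2 against D0. Of the counts above 0, windows stayed in 2, 8 and 4 of 12 settings for TET D0, D1 and D2. They stayed in 4 of 12 each for DNMT D1 and the TET_KO day effect. Tiles stayed in 2 of 9 settings for TET D0 and in 3 of 9 each for the DNMT_WT and DNMT_KO day effects. With values as deposited the windows called were 0 for TET D0, TET D2, DNMT D1 and the TET_KO day effect, and the tiles 0 for TET D0 and the DNMT_WT day effect and 1 for DNMT_KO. With chromosomes centred, windows were 1, 0 and 0 for TET D0, D1 and D2, and 1 and 2 for the DNMT_WT and TET_KO day effects, and tiles 0 for TET D0 and DNMT_WT. Irx3 at D1 then reversed to 0.071. With library medians equal, windows were 1 for TET D0 and D2 and 0 for DNMT D1 and TET_KO, and tiles 0 for TET D0 and DNMT_WT and 2 for DNMT D1 and DNMT_KO. Fitting only the groups compared gave windows of 0 for TET D0, D1, D2, DNMT D1 and TET_KO, and tiles of 0 for TET D0, DNMT_WT and DNMT_KO, 1 for TET_WT and 3 for TET_KO. With thinned reads windows were 1 for TET D0 and 0 for TET D1, D2, DNMT D1 and TET_KO, and tiles 0 for TET D0, DNMT_WT and DNMT_KO. Voom gave windows of 5 for TET D2, 0 for DNMT D1 and TET_KO and 1 for TET_WT, and tiles of 0 for TET D0 and DNMT_WT, 1 for TET_WT and DNMT_KO and 2 for TET_KO. Genes above the median level alone gave windows of 5 for TET D0 and D2, 0 for DNMT D1 and 3 for TET_KO. Windows with 2 kb either side gave 1 for TET D0 and D1 and 0 for DNMT D1 and TET_KO. A pseudocount of 0.2 RPKM and empty tiles at the deposited floor each gave 1 for TET D0, and protein-coding genes only, an alternative added after seeing the data, gave 4. The highest 20% of tiles gave 0 for TET D0 and 1 for TET_WT and TET_KO, and the highest 5% gave 1 for TET_WT and 2 for DNMT_KO. The causes were not tested.

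Leaving out each library in turn gave 1 to 3 windows for TET D0, 1 to 1 for D1, 0 to 3 for D2, 0 to 3 for DNMT D1, 0 to 1 for the DNMT_WT day effect and 0 to 0 for TET_KO, and tiles of 0 to 1 for TET D0, TET_WT, DNMT_WT and TET_KO and 0 to 3 for DNMT_KO; the other counts stayed at 0. A TET_KO library alone at D2 is assumed to vary like the other groups. With the replicate block windows were 5 for TET D2 and 0 for DNMT D1. Same-numbered samples correlated at -0.177 to 0.247, and in no comparison did every sample correlate best with its own number. In TET_KO against TET_WT at D1 and in the DNMT_WT and DNMT_KO day effects 2 of 3 did so. The labels do not say whether a shared number marks a shared batch, and so few libraries a group cannot decide it. At 16 reads in the shallowest window and 5 in the median tested tile of the shallowest library, small differences were not detectable.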
